A study of Mus musculus with 9 samples.

Results

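The genes described here are 10 members of a KRAB zinc finger gene cluster on distal mouse chromosome 4: Zfp980, Zfp986, Zfp987, Zfp981, Zfp988, Zfp978, Zfp982, Zfp985, Zfp979 and Zfp984, in their order along the chromosome. They were taken by symbol from a window of 3 Mb around the cluster in GRCm38, with symbols and positions from GENCODE M21, and are 10 of the 105 genes annotated in that window and of the 47937 genes in the count table. They were listed with their expression in these libraries already known, so their own levels and differences are given as a description without a test. RNA was sequenced from mouse embryonic fibroblasts (MEFs) of 3 genotypes, with 3 libraries per genotype. WT is a line in which Eset1 (Setdb1) can be deleted with tamoxifen and still carries all its H3K9 methyltransferases. S1S2 was made from that line by CRISPR/Cas9 frameshifts in Suv39h1 and Suv39h2, and G9Gl by frameshifts in G9a (Ehmt2) and Glp (Ehmt1). The mutants therefore share the conditional Eset1 allele with WT. Each mutant was taken as a clone picked for absent protein on western blots, so genotype and clone cannot be told apart. The study's methods call the 3 libraries of a line biological replicates and the labels do not say whether they came from separate cultures, so p-values measure the spread between libraries of 1 line.

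KRAB zinc finger proteins bind DNA through a row of C2H2 zinc fingers. Their KRAB domain recruits the corepressor TRIM28, which brings the methyltransferase SETDB1 and with it H3K9me3 to the bound site, and many of these proteins bind transposable elements. The genes multiply by tandem duplication and lie in clusters of close copies, and such clusters are themselves known to be covered by H3K9me3. SUV39H1 and SUV39H2 set H3K9me3, chiefly in heterochromatin, and the products of G9a and Glp set H3K9me1 and H3K9me2.

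Libraries held 21319778 to 32157623 counts, and a floor of 3 counts per library, at or under which a gene was taken as not detected, equals 0.0922 to 0.141 CPM (counts-per-million). Suv39h1 RNA fell from 108 ± 4.59 CPM in WT to 41.9 ± 3.14 in S1S2 (SD, n = 3, edgeR adjusted p = 2.6e-12), whereas Suv39h2 was higher in S1S2 at 55.2 ± 2.34 against 33.9 ± 0.670 CPM (edgeR adjusted p = 3.0e-08). In G9Gl, Ehmt2 fell from 125 ± 9.63 to 54.2 ± 2.82 CPM (edgeR adjusted p = 9.2e-12) and Ehmt1 from 103 ± 1.78 to 50.2 ± 1.62 CPM (edgeR adjusted p = 2.2e-12). A frameshifted gene can still be transcribed, so these levels do not by themselves check the genotype. Of 10 fibroblast markers, 9 were above the floor in every library of each genotype, with summed levels of 9797 to 11294 CPM in WT, 7365 to 7429 in S1S2 and 7714 to 8567 in G9Gl. Of 8 embryonic stem cell markers, at most 1 was above the floor throughout a genotype, and Pou5f1, Tdgf1 and Zfp42 were at 0 in all libraries. Of 6 epithelial markers, 2 were above the floor in each genotype, and their sum was 2.45 to 3.29 CPM in WT, 24.5 to 28.5 in S1S2 and 10.2 to 15.8 in G9Gl. The summed endothelial markers ran from 0.123 to 0.193 CPM in WT, from 1.55 to 1.70 in S1S2 and from 0.790 to 2.35 in G9Gl, with 1, 1 and 2 of 4 above the floor. Blood markers were at 4.30 to 4.46, 3.24 to 4.04 and 4.63 to 4.89 CPM, with 1 of 5 above the floor, and neuronal markers at 24.8 to 27.0, 37.8 to 42.3 and 19.3 to 26.9 CPM, with 2, 2 and 3 of 4 above it. The part of these marker levels in the results that follow was not tested.

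The upstream sequences of the cluster genes carried a shared stretch. RefSeq promoters of GRCm38.p6, from 250 bases before to 50 after a start, were found for 8 of the 10 genes, all but Zfp978 and Zfp986. All 8 contained the letters TATTGGGCG, read on either strand, which occurred in 39 of the 32851 promoters of the genome, or 0.119%. The letters were chosen after the sequences had been looked at. Shown are 5 of the 8, which stand for the expression patterns described further on, written 5′ to 3′ on the strand of the gene and ending before the start or the first annotated exon, with the shared letters in capitals. Zfp981 lies at chr4:146514790-146514919, Zfp982 at chr4:147492287-147492416 and Zfp985 at chr4:147553147-147553276 on the plus strand, and Zfp979 at chr4:147642514-147642638 and Zfp984 at chr4:147809841-147809918 on the minus strand.
Zfp981: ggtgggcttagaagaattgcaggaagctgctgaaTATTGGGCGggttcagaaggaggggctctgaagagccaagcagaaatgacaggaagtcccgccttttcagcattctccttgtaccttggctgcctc
Zfp982: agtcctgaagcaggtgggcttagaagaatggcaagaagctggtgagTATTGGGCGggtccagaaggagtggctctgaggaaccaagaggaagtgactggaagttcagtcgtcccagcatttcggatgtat
Zfp985: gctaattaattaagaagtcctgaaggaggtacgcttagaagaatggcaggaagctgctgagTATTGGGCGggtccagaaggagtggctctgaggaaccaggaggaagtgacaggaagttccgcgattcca
Zfp979: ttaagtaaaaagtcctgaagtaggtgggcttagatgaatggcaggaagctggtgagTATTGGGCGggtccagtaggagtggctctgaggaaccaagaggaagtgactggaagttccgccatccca
Zfp984: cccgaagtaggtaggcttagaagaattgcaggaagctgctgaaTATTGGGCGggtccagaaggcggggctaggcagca

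The shared letters began 96 bases before the start in Zfp981, 84 in Zfp982, 69 in Zfp985, 74 in Zfp979 and 87 in Zfp984. They hold the inverted CCAAT motif, the reverse complement ATTGG, so the 2 motifs overlap, and CCAAT on either strand was found in all 8 promoters and in 37.4% of all promoters. GGGCGG, the core of a GC box, was found in 7 of the 8 and in 35.7% of all promoters, and in those 7 it overlaps the end of the shared letters. Over the 130 bases before the start, pairwise identity between the 8 genes ran from 39.7% to 90%, with a median of 67.9%. In the 250 bases before the start they held a median of 2.5 CpG, against 6 for all promoters. Genes with the letters in any of their promoters numbered 34. Of them, 12 lay in the window, out of 26 window genes with a promoter: the 8 above and Gm13212, Zfp600, Rex2 and Zfp534. In Zfp600 the letters lay in another promoter than the one taken as nearest to an annotated start, which did not hold them. Of the 12 window genes with the letters, 9 were at or under the floor in all WT libraries and 11 in all G9Gl libraries. Above it in all S1S2 libraries were 11. Among all 105 window genes these numbers were 69, 73 and 41. The 12 include 8 of the listed genes, so nothing is read from these numbers. Zfp984, which carries the same letters, was expressed in every library. Whether the letters go with expression was not tested. Outside the window, 22 genes carried the letters and 16 of them were tested. Of these, 1 was called in S1S2 against WT (Zfp947, lower; 9.0% of all genes were called), 1 in G9Gl against WT (Hs3st3a1, higher; 10.2% of all genes) and both of them in G9Gl against S1S2 (higher; 13.1%), and both were named after their values were seen. A match of letters is a description and not a binding site.

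All 10 genes encode zinc finger proteins by annotation. The DNA pattern of the conserved linker between neighbouring C2H2 fingers was counted on the coding strand of each coding sequence. Copies per gene ran from 1 in Zfp979 to 12 in Zfp987, and at least 1 copy was found in 2.39% of the 21901 mouse coding genes. The genes are 21070 (Zfp982) to 55815 bases long (Zfp984), 8 of them on the plus strand, with Zfp979 and Zfp984 on the minus strand. The first, Zfp980, lies at chr4:145670685-145704441 and the last, Zfp984, at chr4:147753974-147809788.

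In S1S2, RNA of most of the cluster was present where WT and G9Gl had almost none. Above the floor in all 3 libraries of a genotype were 3 of the 10 genes in WT (Zfp981, Zfp979 and Zfp984), 9 in S1S2 (all but Zfp987) and 1 in G9Gl (Zfp984). Leaving Zfp984 aside, the other 9 genes together gave 23, 22 and 31 counts in the WT libraries, 654, 854 and 606 in S1S2, and 0, 0 and 2 in G9Gl. Scaled to depth, these sums were 0.707, 0.727 and 0.999 CPM in WT, 30.0, 31.1 and 28.5 CPM in S1S2, and 0, 0 and 0.0652 CPM in G9Gl. The 3 genotypes did not overlap in this sum. Over all 15540 genes tested, libraries did not overlap for 8710 between S1S2 and WT. The number was 8201 for G9Gl against WT and 9450 for G9Gl against S1S2. A lack of overlap is therefore common here and sets no gene apart by itself. In bulk RNA, fewer cells expressing a gene and less RNA per cell cannot be told apart. Across all 15540 genes tested, 9.0% were called between S1S2 and WT (4.66% higher, 4.34% lower), 10.2% for G9Gl against WT (6.77% higher, 3.4% lower) and 13.1% for G9Gl against S1S2 (7.97% higher, 5.08% lower). A call needs an adjusted p no larger than 0.01 together with a fold change of 2 or more. Because the genes were listed with these differences in view, nothing is read from their own calls. The filter on low counts was passed by 7 of the 10, all but Zfp980, Zfp986 and Zfp987, and most of those 7 passed it through the S1S2 libraries.

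**Figure D1:**
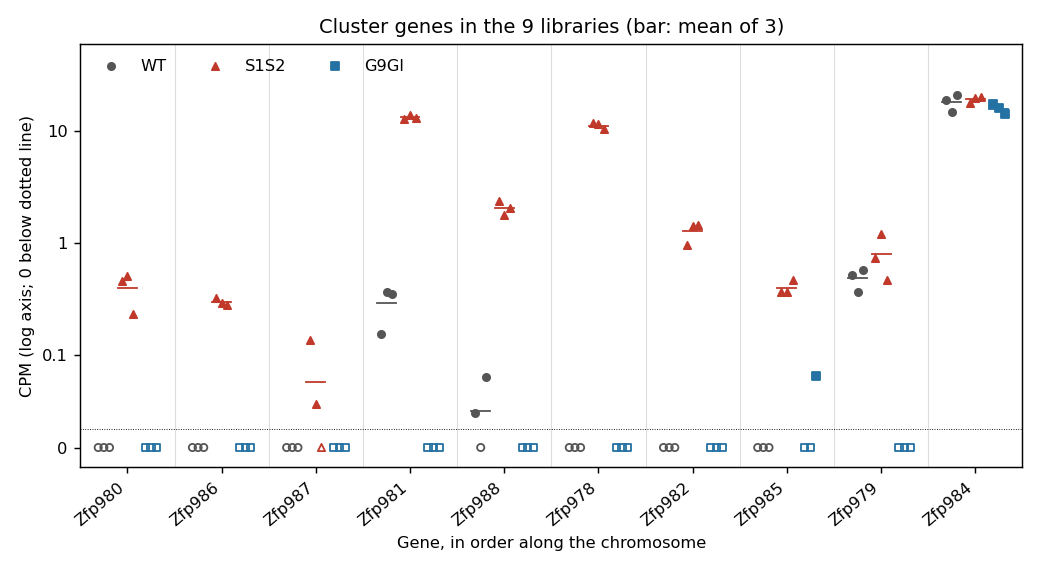
Level in CPM (log axis) of the 10 cluster genes in each of the 9 libraries, in order along the chromosome; symbols mark WT, S1S2 and G9Gl, bars mark means of 3 libraries of at least 0.025 CPM, and open symbols under the dotted line mark libraries with no count. Zfp984 lies between 14.1 and 21.1 CPM in all libraries, whereas 8 of the 10 genes have no count in any G9Gl library.

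Zfp978 and Zfp981 supplied most of the S1S2 signal, 82.1%, 82.0% and 82.5% of the counts of the 9 genes without Zfp984. Zfp978 had no count in any WT or G9Gl library and 256, 315 and 222 counts in S1S2, or 11.8, 11.5 and 10.4 CPM. Against the floor, S1S2 was at least 117-fold higher than WT, and G9Gl at least 108-fold lower than S1S2. Zfp981 differed from it in having RNA in WT. Its counts were 5, 11 and 11 in WT, or 0.154, 0.363 and 0.354 CPM, then 281, 385 and 278 in S1S2, or 12.9, 14.0 and 13.1 CPM, and 0 in all G9Gl libraries. The 3 genotypes did not overlap. The mean of S1S2 was 45.9-fold that of WT, a difference in log2 CPM of 5.27 ± 0.31 (SE), and G9Gl was at least 2.80-fold below WT and at least 129-fold below S1S2.

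Zfp988 and Zfp982 were next in S1S2. Zfp988 gave 1, 0 and 2 counts in WT, 52, 49 and 44 in S1S2 and none in G9Gl. Its S1S2 to WT ratio was 64.3, with an exact 95% counting interval of 21.6 to 316, and G9Gl was at least 20.1-fold below S1S2. Zfp982 had no count in WT or G9Gl and 21, 39 and 31 in S1S2, at least 13.3-fold higher than WT. In both genes every S1S2 library lay above every library of the other genotypes.

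Zfp985, Zfp980 and Zfp986 were near the limit of detection. Zfp985 gave 8, 10 and 10 counts in S1S2 (0.368, 0.364 and 0.470 CPM), none in WT, and 0, 0 and 2 in G9Gl. It was at least 4.17-fold higher in S1S2 than in WT, and its S1S2 to G9Gl ratio was 17.3 with an exact 95% counting interval of 4.36 to 150. Zfp980 gave 10, 14 and 5 counts in S1S2 and Zfp986 gave 7, 8 and 6, both with none in WT or G9Gl, so that S1S2 was at least 4.18-fold and at least 3.11-fold higher than WT. Zfp987 had 3, 1 and 0 counts in S1S2 and none elsewhere, at or under the floor in every library, and no fold is given.

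Zfp979 and Zfp984 were already expressed in WT, as Zfp981 was. Zfp979 gave 17, 11 and 18 counts in WT, or 0.523, 0.363 and 0.580 CPM, and 16, 33 and 10 in S1S2, or 0.735, 1.202 and 0.470 CPM. These libraries overlapped, with a difference in log2 CPM of 0.57 ± 0.40 (SE). No G9Gl library had a count for Zfp979, at least 4.72-fold below WT. Zfp984 gave 623, 450 and 654 counts in WT, 390, 541 and 431 in S1S2, and 495, 448 and 433 in G9Gl. Its level was 18.4 ± 3.17 CPM in WT, 19.3 ± 1.22 in S1S2 and 15.9 ± 1.63 in G9Gl (SD, n = 3), and the differences in log2 CPM from WT were 0.08 ± 0.16 and -0.20 ± 0.17 (SE). WT overlapped with both mutants, while every G9Gl library lay below every S1S2 library, by -0.29 ± 0.10 in log2 CPM.

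Per kilobase of the longest transcript, the order of levels differed between the genotypes. In S1S2, Zfp978 stood first with a level of 8.98 ± 0.559 CPM per kb, followed by Zfp984 with 7.07 ± 0.448 and Zfp981 with 4.39 ± 0.199, and no libraries of these neighbours in the order overlapped. Zfp982 at 0.861 ± 0.184 and Zfp988 at 0.743 ± 0.108 CPM per kb overlapped. Below them came Zfp979 at 0.309 ± 0.143 and Zfp986 at 0.209 ± 0.0145, which overlapped, then Zfp985 at 0.145 ± 0.0218, Zfp980 at 0.1002 ± 0.0365 and Zfp987 at 0.0208 ± 0.0255 CPM per kb, which did not. In WT the order was Zfp984 at 6.73 ± 1.16, Zfp979 at 0.188 ± 0.0432, Zfp981 at 0.0956 ± 0.0390 and Zfp988 at 0.0113 ± 0.0115 CPM per kb, with no overlap between these neighbours and no count for the other 6. In G9Gl only Zfp984, at 5.81 ± 0.597 CPM per kb, was above the floor. The order rests on the length of 1 annotated transcript per gene, 1250 bases for Zfp978. It also rests on counts that may include reads from sequence shared with other genes. The order was not recomputed with other lengths.

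The cluster genes share long runs of sequence, and a single read of 75 bases that falls there cannot be placed in 1 gene by its sequence alone. Reads were paired, and the other read of a pair may fall outside the shared run. The shares below are for single reads. Each gene's transcripts were cut into all words of 75 bases, and the share found in the transcripts of any other annotated gene was computed. It was 4.36% for Zfp985 and 4.93% for Zfp982, 23.3% for Zfp981, 23.6% for Zfp979, 40.9% for Zfp984, 56.1% for both Zfp980 and Zfp988, 66.4% for Zfp978, 77.4% for Zfp986 and 81.7% for Zfp987. The libraries were aligned with settings that keep reads with several matches, and how such reads were divided between genes is not given in the sources used here.

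**Figure D2:**
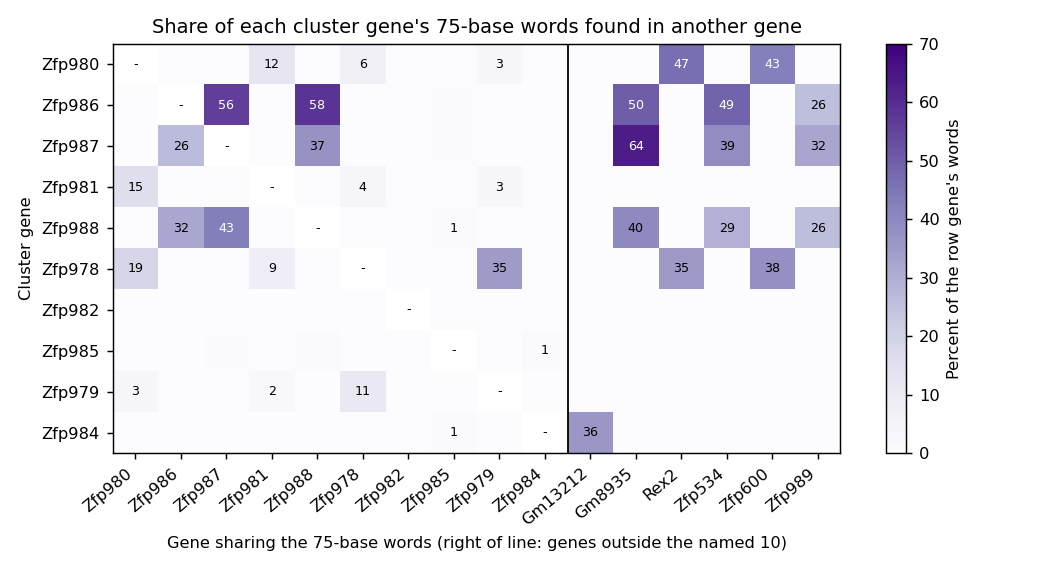
Share of the 75-base words in the transcripts of each cluster gene (rows) that also occur in another gene (columns), in percent of the row gene's words; values of at least 1 are printed, and columns right of the line are genes outside the 10 that hold at least 20% of a row gene's words. Zfp982 and Zfp985 have no partner above 5%, whereas Zfp986, Zfp987 and Zfp988 share 26.5% to 58.4% of their words pairwise.

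The sharing fell into groups. Zfp986, Zfp987 and Zfp988 shared words with each other and with Zfp534, Zfp989 and Gm8935, the last a pseudogene on another chromosome that held 63.5% of the words of Zfp987 and at most 1 count in any library. Zfp980, Zfp978, Zfp981 and Zfp979 shared words with each other and with Zfp600 and Rex2, with 46.6% of the words of Zfp980 found in Rex2 and 37.9% of those of Zfp978 in Zfp600. Zfp984 shared 35.9% of its words with Gm13212, and its exons also overlap those of Gm20707, so their counts are uncertain relative to each other. For Zfp978, 430 of 1281 words occurred in no other gene. Its S1S2 counts, 222 to 315, were several times those of the genes it shared words with, which had 18 to 40 (Zfp600), 10 to 12 (Rex2), 10 to 33 (Zfp979) and 5 to 14 (Zfp980), whereas Zfp981, with 8.59% of its words, had 278 to 385. For Zfp982 and Zfp985, at least 95% of whose words were their own, S1S2 gave counts in all 3 libraries and WT gave none. The zero counts of G9Gl covered genes of both high and low sharing. How far shared reads moved counts between copies was not tested.

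**Figure D3:**
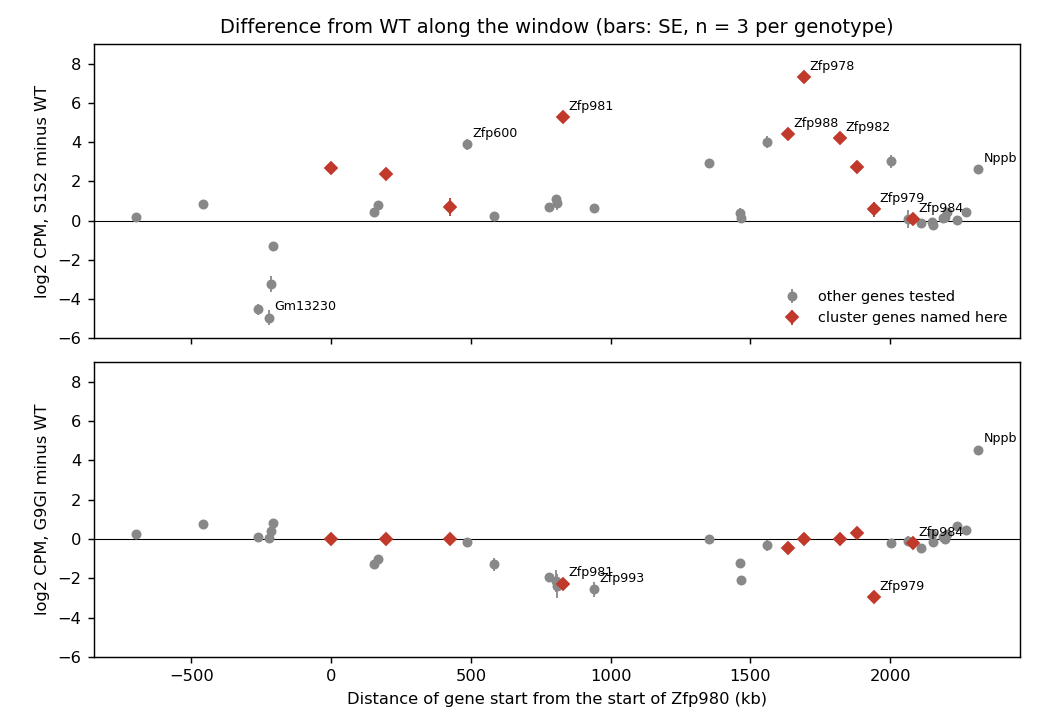
Difference in log2 CPM (prior count of 2) from WT for S1S2 (top) and G9Gl (bottom) against the distance of each gene's start from that of Zfp980 in kb, for the 10 cluster genes and the 29 other genes of the window that were tested; bars are SE with 3 libraries per genotype. In S1S2 the cluster genes reach 7.30 for Zfp978 among neighbours on both sides of 0, and in G9Gl Zfp979 and Zfp981 lie at -2.95 and -2.28.

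The other genes of the window were not used to list the 10 and were tested. Of 95 such genes, 29 passed the filter. Between S1S2 and WT, 10 of the 29 (34.5%) were called, 6 higher and 4 lower, against 9.0% of all genes, with a median log2 fold change of 0.42 against -0.0032 over all genes tested. Between G9Gl and WT 10 of 29 were called, 1 higher and 9 lower, against 10.2% of all genes, with a median of -0.14 against -0.0067. Between G9Gl and S1S2 18 of 29 were called, 5 higher and 13 lower, against 13.1% of all genes. The first pair of contrasts share the WT libraries. Zfp600, Rex2, Zfp534 and Gm13147 made 4 of the 6 higher calls in S1S2 and 4 of the 13 lower calls of G9Gl against S1S2. They passed the filter only through their S1S2 counts and share words with the 10, so these calls were close to fixed by the filter and nothing is read from the shares. With a minimum of 10 counts in every library, 15 neighbours were left to test and 1, 4 and 5 were called in the 3 contrasts, the 1 between S1S2 and WT being lower in S1S2.

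Among these neighbours, 10 hold the finger linker pattern in their coding sequence and 7 of them were tested. Zfp600, Rex2 and Zfp534 had RNA chiefly in S1S2, as a pseudogene, Gm13147, did, and their values are given without a p for the reason above. Zfp600 (chr4:146156824-146198755) gave 1, 0 and 0 counts in WT, 18, 40 and 25 in S1S2 and none in G9Gl, an S1S2 to WT ratio of 110 with an exact 95% counting interval of 19.3 to 4415. Rex2 gave 12, 12 and 10 counts in S1S2 and none elsewhere, at least 5.06-fold higher than WT. Zfp534 gave 0, 0 and 1 counts in WT, 13, 11 and 18 in S1S2 and none in G9Gl. Gm13147 gave 2, 0 and 0 counts in WT, 29, 35 and 30 in S1S2 and none in G9Gl. In all 4 the S1S2 libraries lay above all others. Zfp600 shared 74.5%, Rex2 82.4%, Zfp534 53.0% and Gm13147 34.1% of their words with other genes, and 49.5%, 54.1%, 48.4% and 24.6% with the 10 cluster genes. Of those not tested, Gm13212 gave 2, 1 and 2 counts in WT, 15, 25 and 7 in S1S2 and 1, 1 and 2 in G9Gl, Zfp990 gave 3, 3 and 6 in S1S2 and none elsewhere, and Zfp989 was at or under the floor in every library.

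A further set of zinc finger genes, interspersed with the cluster genes, was expressed in WT and lower in G9Gl. Zfp992 was at 20.96 ± 2.71 CPM in WT and 5.39 ± 0.104 in G9Gl, a log2 fold change of -1.96 ± 0.11 (SE, edgeR adjusted p = 3.1e-11). Zfp993 was at 3.36 ± 0.577 CPM in WT and 0.536 ± 0.219 in G9Gl, a log2 fold change of -2.63 ± 0.37 (edgeR adjusted p = 6.6e-08). Zfp991 fell by 1.27 ± 0.18 on the log2 scale in G9Gl (edgeR adjusted p = 0.00010). In S1S2, Zfp992 was at 33.4 ± 2.23 and Zfp993 at 5.21 ± 0.241 CPM, above WT by 0.67 ± 0.12 and 0.63 ± 0.14 in log2 (edgeR adjusted p = 3.6e-06 and 0.0052) and under the fold of 2 that a call needs. Zfp991 was at 5.02 ± 1.41 CPM in S1S2 and 3.67 ± 0.304 in WT, a log2 fold change of 0.46 ± 0.26 (edgeR adjusted p = 0.051) with overlapping libraries. Beside Zfp992, a pair of pseudogenes, Gm13241 and Gm13245, fell in G9Gl by 2.17 ± 0.56 and 2.77 ± 0.62 on the log2 scale (edgeR adjusted p = 9.7e-05 and 0.00014). In G9Gl they were at 0.336 ± 0.286 and 0.142 ± 0.131 CPM, low levels that varied widely between libraries. The lincRNA Gm26624, which overlaps Zfp991, Zfp988 and Zfp978 but none of their exons, fell by 2.46 ± 0.24 (edgeR adjusted p = 1.5e-05). For Zfp992, Zfp993, Zfp991, Gm13241, Gm13245 and Gm26624 the G9Gl libraries lay below the WT libraries. In this contrast 8201 of all 15540 genes tested did not overlap. Zfp993 shared 78.7% and Zfp991 75.9% of their words with other genes, Zfp992 34.5% and Gm26624 none. This sharing was largely among the genes themselves and with the pseudogene Znf41-ps: Zfp993 had 75.4% of its words in Zfp991, 57.3% in Znf41-ps and 41.5% in Zfp992, and Zfp991 had 60.8% in Znf41-ps and 46.9% in Zfp992. Their differences are therefore not independent of each other, and how far the same reads entered more than 1 of these counts was not tested. Zfp933, past the distal end of the 10, was at 20.2 ± 0.941 CPM in WT, 17.2 ± 1.00 in S1S2 and 18.4 ± 1.17 in G9Gl and was not called.

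**Figure D4:**
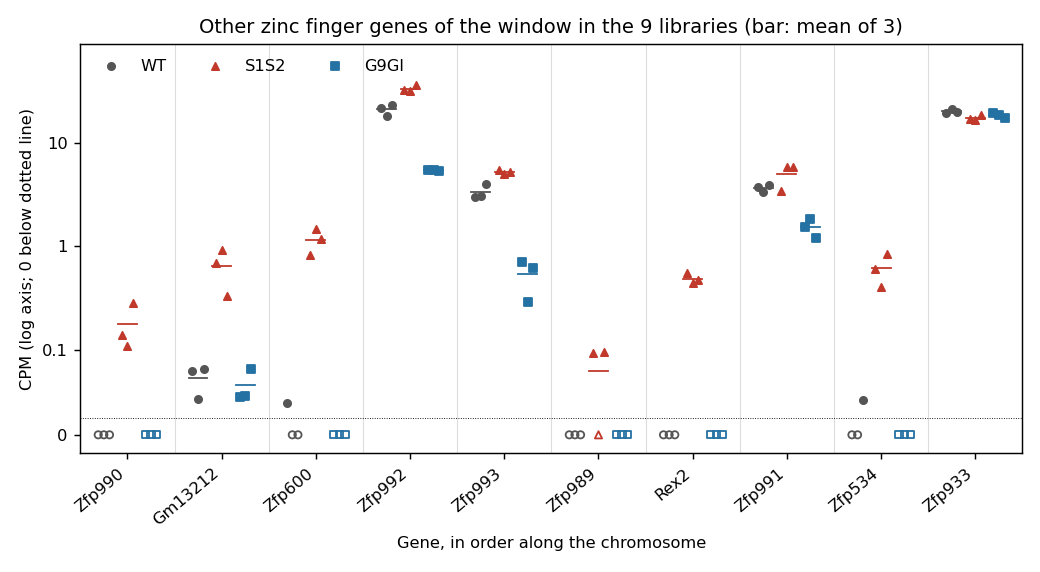
Level in CPM (log axis) of the other 10 window genes whose coding sequence holds the finger linker pattern, drawn as for the cluster genes. Zfp600, Rex2 and Zfp534 have counts in S1S2 and at most 1 count in any other library, whereas Zfp992, Zfp993 and Zfp991 have RNA in every library with G9Gl lowest, and Zfp933 is at like levels in all 3 genotypes.

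On the proximal side, 4 genes that lie within chr4:145410245-145467420 fell in S1S2. Platr16, a noncoding transcript, was at 10.2 ± 1.36 CPM in WT, 0.392 ± 0.149 in S1S2 and 11.0 ± 0.572 in G9Gl, 26.0-fold lower in S1S2 than in WT (edgeR adjusted p = 4.2e-12). Gm13230, a pseudogene whose exon overlaps an exon of Platr16 on the same strand, was at 38.8 ± 8.05, 1.25 ± 0.566 and 39.9 ± 6.76 CPM, 31.0-fold lower in S1S2 (edgeR adjusted p = 1.1e-11). Gm13223 gave 37, 34 and 23 counts in WT, 1, 0 and 2 in S1S2 and 51, 36 and 32 in G9Gl (edgeR adjusted p = 7.4e-06). Smarca5-ps fell by 1.43 ± 0.08 on the log2 scale in S1S2 (edgeR adjusted p = 0.00044). In these 4 genes the S1S2 libraries lay below all others. Platr16 has 36.7% of its words in Gm13230, so the 2 may count the same reads and are not separate observations.

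At the distal edge Nppb, which encodes brain natriuretic peptide, rose in both mutants. It was at 0.307 ± 0.070 CPM in WT, 2.25 ± 0.322 in S1S2 and 8.70 ± 0.529 in G9Gl, with log2 fold changes against WT of 2.86 ± 0.20 and 4.80 ± 0.17 (edgeR adjusted p = 2.9e-08 and 1.2e-12), and no libraries of the 3 genotypes overlapped. The other tested genes past the cluster were not called against WT in either mutant. Mfn2, a mitochondrial fusion gene, and Plod1, a collagen lysyl hydroxylase, differed from WT by at most 0.42 ± 0.04 and 0.64 ± 0.04 in log2.

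Zfp genes elsewhere in the genome gave other figures. Of 356 genes with a Zfp symbol outside the window, 307 were tested. Called between S1S2 and WT were 16 (5.21%), 3 higher and 13 lower, with a median log2 fold change of -0.11. Called between G9Gl and WT were 10 (3.26%), 3 higher and 7 lower, with a median of -0.09, and between G9Gl and S1S2 24 (7.82%), 14 higher and 10 lower. These shares were below those of all genes, 9.0%, 10.2% and 13.1%. Whether they differed from the window was not tested.

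The factors that KRAB zinc finger proteins work with were expressed in all 3 genotypes. Trim28, the KRAB corepressor, was at 377 ± 7.89 CPM in WT, 380 ± 6.97 in S1S2 and 364 ± 11.3 in G9Gl, and was not called. Setdb1, which has a conditional allele in all 3 lines, was at 53.4 ± 1.38, 41.3 ± 0.506 and 47.7 ± 2.99 CPM, a log2 fold change of -0.37 ± 0.02 in S1S2 (edgeR adjusted p = 2.1e-05), under the fold of 2. Of 20 such genes tested, 2 were called in S1S2 against WT, both higher, a share near the 9.0% of all genes. Trim24, a TRIM family cofactor related to Trim28, was at 356 ± 5.59 CPM in S1S2 against 86.6 ± 0.886 in WT, a log2 fold change of 2.04 ± 0.02 (edgeR adjusted p = 1.2e-16). Atf7ip, a partner of SETDB1, was at 223 ± 1.43 against 109 ± 4.85 CPM, a log2 fold change of 1.03 ± 0.04 (edgeR adjusted p = 4.8e-12). Without WT replicate 3, Atf7ip was not called. By edgeR, 0 of the 20 were called in G9Gl against WT, with 13 at an unadjusted p below 0.05, against 8142 of all 15540 genes, and 0 called by DESeq2. Their median log2 fold changes were -0.09 in S1S2 and -0.13 in G9Gl. Between G9Gl and S1S2, 3 of the 20 (15.0%, against 13.1% of all genes) were called, all lower in G9Gl: Trim24 at a log2 fold change of -2.34 ± 0.02, Atf7ip at -1.06 ± 0.03 and Fam208a (Tasor), a subunit of the HUSH silencing complex, at -1.002 ± 0.057. Fam208a was at 121 ± 4.76 CPM in S1S2 and 60.5 ± 3.35 in G9Gl. Its call sits at the fold cutoff: it was not called by DESeq2, at a log2 fold change of -0.996, nor without S1S2 replicate 3 (-0.97) or G9Gl replicate 3 (-0.95).

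For each of the 7 cluster genes that passed the filter, the other tested genes were ranked by their difference from it. The measure was the root mean square (RMS) difference of log2 CPM over the 9 libraries, each gene centred on its own mean. It uses the values known when the cluster genes were listed. Most of the 7 passed the filter through S1S2, so genes near 0 elsewhere and at a like S1S2 level rank as close. Nothing is read from which genes came out closest. The closest to Zfp978 were Gm21887 on chromosome X and Tdrd9 on chromosome 12, with RMS differences of 0.296 and 0.350. Closest to Zfp982 were Rorb, at 0.186, and its cluster neighbour Zfp600, at 0.210, and to Zfp981 Coro2a, at 0.476, and Lbx1, at 0.532. Zfp988 was nearest to Zfp804a, at 0.304, and Wnt7a, at 0.315, and Zfp985 to F5, at 0.201, and Gm38099, at 0.267. Zfp979 was nearest to Coro2b, at 0.226, a gene at 0.679 ± 0.161 CPM in WT, 1.03 ± 0.221 in S1S2 and 0.0226 ± 0.0196 in G9Gl, and to Bace2, at 0.344. The steady Zfp984 was nearest to Zswim7, at 0.0814, and Fam45a, at 0.0880. Of these 14 genes, Zfp600 and Coro2a lie on chromosome 4.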

How the data were processed

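The authors deposited raw counts per Ensembl gene. Per the study's methods, which are taken to describe these libraries, stranded paired-end total RNA reads of 75 bp were trimmed, aligned to GRCm38 with STAR (2.5.2b in the submitters' processing notes) and counted with TEtranscripts. The annotation release and strand setting are not given in the sources used here, so antisense or overlapping genes are uncertain. Of 47937 genes, 47224 matched GENCODE M21 by identifier. The genes and lists were chosen with earlier results of these data known. After filterByExpr, 15540 genes were tested with the quasi-likelihood test of edgeR 4.0.16 (R 4.3.3, TMM, 9 libraries in 1 fit) with Benjamini-Hochberg adjustment. CPM are scaled by TMM, and SE come from log2 CPM with a prior count of 2. Bounds use 3 counts per library. Intervals and floors cover counting error only, as PCR copies were not told apart by molecular identifiers. Simulated data with known changes were used to test the fit. Replicates differed by more than counting noise. Alternatives were DESeq2 1.42.0, its size factors, other filters, thresholds and word lengths, a replicate block and leaving out libraries.

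Besides the 10 genes and the 4 targeted ones, the text names, per contrast, the 5 largest rises and 5 largest falls among called window neighbours whose libraries do not overlap, called silencing partners with Trim28 and Setdb1, the 2 genes most alike each tested cluster gene, and genes holding at least 20% of a cluster gene's words. Other genes named (markers, Znf41-ps, Zfp990, Zfp991, Zfp933, Zfp947, Hs3st3a1, Mfn2, Plod1, Gm20707) fall outside this rule and were chosen after their values were seen, the markers excepted.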

Additional observations from a re-analysis of the deposited data

Results flagged for a closer look

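Among the window neighbours, 5 genes lay above WT in one mutant and below it in the other, with adjusted p no larger than 0.01 on both sides, and were called between G9Gl and S1S2. As the genes were picked for lying on opposite sides of WT, the difference between the mutants follows from the choice and is given without a p. The log2 difference of G9Gl from S1S2 was -2.63 for Zfp992 (0.67 in S1S2 and -1.96 in G9Gl against WT), -3.26 for Zfp993 (0.63 and -2.63) and -1.71 for the pseudogene Znf41-ps (0.42 and -1.29). It was -3.32 for Gm13241 (1.15 and -2.17). The order was the other way for Smarca5-ps, at 2.31 (-1.43 and 0.88). Znf41-ps, Zfp993 and Gm13241 share 83.0%, 78.7% and 68.1% of their 75-base words with other genes, and Smarca5-ps and Zfp992 share 48.2% and 34.5%. Znf41-ps has 54.9% of its words in Zfp992 and 29.4% in Zfp993, and Zfp993 has 41.5% in Zfp992, so these 3 genes may count the same reads and are not separate observations. Groups of 3 libraries are too small for a check of single outlying libraries.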

How the results depend on the processing

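Of 117 recomputed counts of called genes, 105 stayed within 1.5 times the reported count. A minimum of 10 counts in every library left 1 of the window neighbours called for S1S2 against WT, 4 for G9Gl against WT and 5 for G9Gl against S1S2, by construction without genes at 0 in a genotype. A looser limit on adjusted p, 0.05 with no fold cutoff, gave, in the contrasts where the count moved, 20 and 16 neighbours, 130, 125 and 156 Zfp genes outside the window, and 14, 13 and 12 silencing partners in S1S2 and G9Gl against WT and G9Gl against S1S2. Leaving out each library in turn gave 10 to 12, 9 to 10 and 18 to 20 neighbours, 15 to 17, 7 to 11 and 21 to 25 Zfp genes outside, and 1 to 2, 0 and 2 to 3 partners, with Atf7ip lost without WT replicate 3 and Fam208a without S1S2 or G9Gl replicate 3. Alternatives for partners in G9Gl against S1S2 were added after seeing the data. There Fam208a was also lost with DESeq2, its size factors, no filter and the minimum of 10 counts.

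Replicate numbers did not pair the libraries, with correlations of same-numbered deviations between -0.069 and 0.124. With the replicate number as a block, the counts were 10, 9 and 18 for neighbours, 16, 9 and 23 for Zfp genes outside, and 2, 0 and 3 for partners. A difference was computed for 21 pairs of cluster gene and contrast, leaving out pairs at or under the floor in both genotypes (Zfp987 in every contrast). Of 210 alternatives, 178 moved by less than 1 SD. The other 32 came with DESeq2 or a prior count of 0.5, which change the value of genes at or near 0. Part of the 178 could not move. The replicate block leaves such a difference unchanged, as does leaving out a library of a genotype at 0 throughout. The 178 is therefore no measure of how firm the differences are. The difference of Zfp984 between S1S2 and WT, not called, became -0.06 without WT replicate 2. With words of 50 or 100 bases in place of 75, the share of shared words ran from 11.9% (Zfp982) to 89.0% (Zfp987) and from 1.73% (Zfp985) to 70.8% (Zfp987). A search of the whole genome was not run, since no genome was used here. Genes near the floor of 3 counts, Zfp980, Zfp985, Zfp986 and Zfp987, are limited by depth, and the S1S2 libraries are the smallest.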
